A study of Mus musculus with 24 samples.

Results

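The genes described here are 29 enzymes and regulators of cholesterol and fatty acid synthesis, chosen by symbol from 24614 genes in the count table. All 29 were among the 11698 genes with enough counts to be tested. They comprise 8 genes of the mevalonate arm, 11 of the squalene and sterol arm, 4 of sterol sensing and transport, and 6 of fatty acid synthesis. Cells build cholesterol from acetyl-CoA, first through mevalonate to isoprenoids, then through squalene to lanosterol and finally cholesterol, while fatty acids are made from the same acetyl-CoA by a separate branch. Both branches are switched on by SREBP transcription factors, which INSIG proteins hold in the endoplasmic reticulum when sterols are plentiful. In macrophages, type I interferon is known to lower sterol synthesis and to shift cells toward lipid uptake.

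The cells were ID8, a mouse ovarian surface epithelial cancer line, in which Trp53 and Brca2 had both been knocked out in every group. WT was the parental line that had not been transfected, and EV carried a CRISPR empty vector. 1CF10 and 2CD7 were clones with knockout of Ifnar1, a subunit of the receptor for type I interferon, each of them a single clone. Each line was left untreated or was given recombinant mouse IFN beta at 10000 IU/ml for 3 h, and 3 libraries per group made 24 in all. Because all replicates of a group were technical and were treated on 1 date, p-values measure the spread between these libraries and not between independent cultures or clones.

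Libraries held 1972192 to 3097331 UMIs (unique molecular identifiers, each counting 1 captured RNA molecule), and levels are given as CPM, UMIs relative to the library's own total. TMM scaling entered the fitted log2 differences alone. The 3′ tags of Ifnar1 lay between 4.33 and 16.7 CPM in all libraries, and they check nothing about the knockout because they need not fall in the edited part. Rsad2, an interferon target, averaged 1225 CPM in treated WT, 907 CPM in treated EV and at most 5.15 CPM in either treated clone. Library 3 of treated 1CF10 stood apart: its chi-square against the other two, divided by the number of genes, was 4.89 and 3.82, where the median over all replicate pairs was 1.9. In bulk RNA, fewer cells that express a gene and less RNA per cell cannot be told apart.

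Promoter sequences are shown for 4 genes that differed between lines or after IFN beta (Hmgcs1, Mvd, Ebp and Fasn) and for Acly, which passed the test in no comparison, all with no annotated exon in the window. Each is the 250 bases before the RefSeq start on GRCm38.p6, read 5′ to 3′ on the gene's strand. Capitals mark the letters searched on both strands: TCACNCCAC (a sterol regulatory element core), CCAAT (bound by NF-Y), GGGCGG (a GC box) and CACGTG (an E-box).
Hmgcs1, chr13:119690101-119690350, plus strand: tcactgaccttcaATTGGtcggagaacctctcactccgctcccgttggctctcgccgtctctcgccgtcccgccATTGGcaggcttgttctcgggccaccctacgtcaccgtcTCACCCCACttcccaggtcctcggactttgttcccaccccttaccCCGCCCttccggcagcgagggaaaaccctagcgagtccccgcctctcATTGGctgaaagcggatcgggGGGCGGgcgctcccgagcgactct
Mvd, chr8:122443423-122443672, minus strand: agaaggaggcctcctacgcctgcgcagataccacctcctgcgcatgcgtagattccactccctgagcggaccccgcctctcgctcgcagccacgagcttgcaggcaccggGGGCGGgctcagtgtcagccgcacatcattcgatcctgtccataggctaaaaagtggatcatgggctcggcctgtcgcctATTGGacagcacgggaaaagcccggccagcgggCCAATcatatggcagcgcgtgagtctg
Ebp, chrX:8193513-8193762, minus strand: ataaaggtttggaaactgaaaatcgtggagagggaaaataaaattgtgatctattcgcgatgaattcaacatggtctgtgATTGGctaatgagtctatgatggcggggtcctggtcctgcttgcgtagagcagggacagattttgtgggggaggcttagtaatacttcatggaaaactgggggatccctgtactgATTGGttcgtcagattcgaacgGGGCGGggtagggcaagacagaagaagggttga
Fasn, chr11:120824548-120824797, minus strand: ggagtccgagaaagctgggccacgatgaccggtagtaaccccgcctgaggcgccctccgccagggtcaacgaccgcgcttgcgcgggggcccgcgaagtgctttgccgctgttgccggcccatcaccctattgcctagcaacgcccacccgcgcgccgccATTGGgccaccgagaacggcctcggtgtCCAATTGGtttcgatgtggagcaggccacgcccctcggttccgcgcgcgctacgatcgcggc
Acly, chr11:100528001-100528250, minus strand: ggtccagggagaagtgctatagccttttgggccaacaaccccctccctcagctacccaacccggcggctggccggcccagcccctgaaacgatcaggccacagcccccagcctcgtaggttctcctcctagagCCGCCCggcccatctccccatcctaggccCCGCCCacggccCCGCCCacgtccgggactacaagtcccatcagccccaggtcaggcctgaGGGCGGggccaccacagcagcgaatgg

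TCACNCCAC lay in the Hmgcs1 window 137 bases before the start, and 1.05% of all 32851 RefSeq mouse promoters held it in a window of the same length. CCAAT or its complement lay in the Hmgcs1, Mvd, Ebp and Fasn windows and was not found in that of Acly, against 33.8% of all promoters. It was found for 19 of the 23 genes with a RefSeq promoter entry, among them Dhcr7, Ggps1, Srebf1 and Srebf2, which like Acly passed the test in no comparison. Counted by gene in the same way, 37.5% of all genes with an entry had it in at least 1 promoter. In the Fasn window a CCAAT and its complement ATTGG overlap in 1 run of capitals. GGGCGG or its complement lay in the Hmgcs1, Mvd, Ebp and Acly windows, against 32.7% of all promoters. CACGTG, held by 6.02% of all promoters, was in none of the 5 windows. The other 6 of the 29 genes had no entry, too many to give a share over the whole group. These matches are letters in a window and not measured binding sites.

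The first comparison asked how the untreated lines differed in these genes before any interferon was added. Clone 1CF10 carried lower levels of most of the pathway. Against WT, 19 of 29 genes were lower and none higher, and against EV 18 were lower and none higher, where 11% and 6.76% of all tested genes were lower and 8.19% and 3.6% higher. Clone 2CD7 was higher than 1CF10 in 16 of 29 genes and lower in none, against 7.71% and 5.69% of all tested genes. A total of 14 genes were lower in 1CF10 than in each of the other 3 lines, against 2.74% of all tested genes, and none was higher, against 1.12%. These 3 comparisons share the 1CF10 libraries. The median log2 difference of the 29 genes was -0.52 against WT and -0.51 against EV, and the 2CD7 minus 1CF10 median was 0.37, where the medians of all tested genes were -0.01, 0.01 and -0.01.

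**Figure D1:**
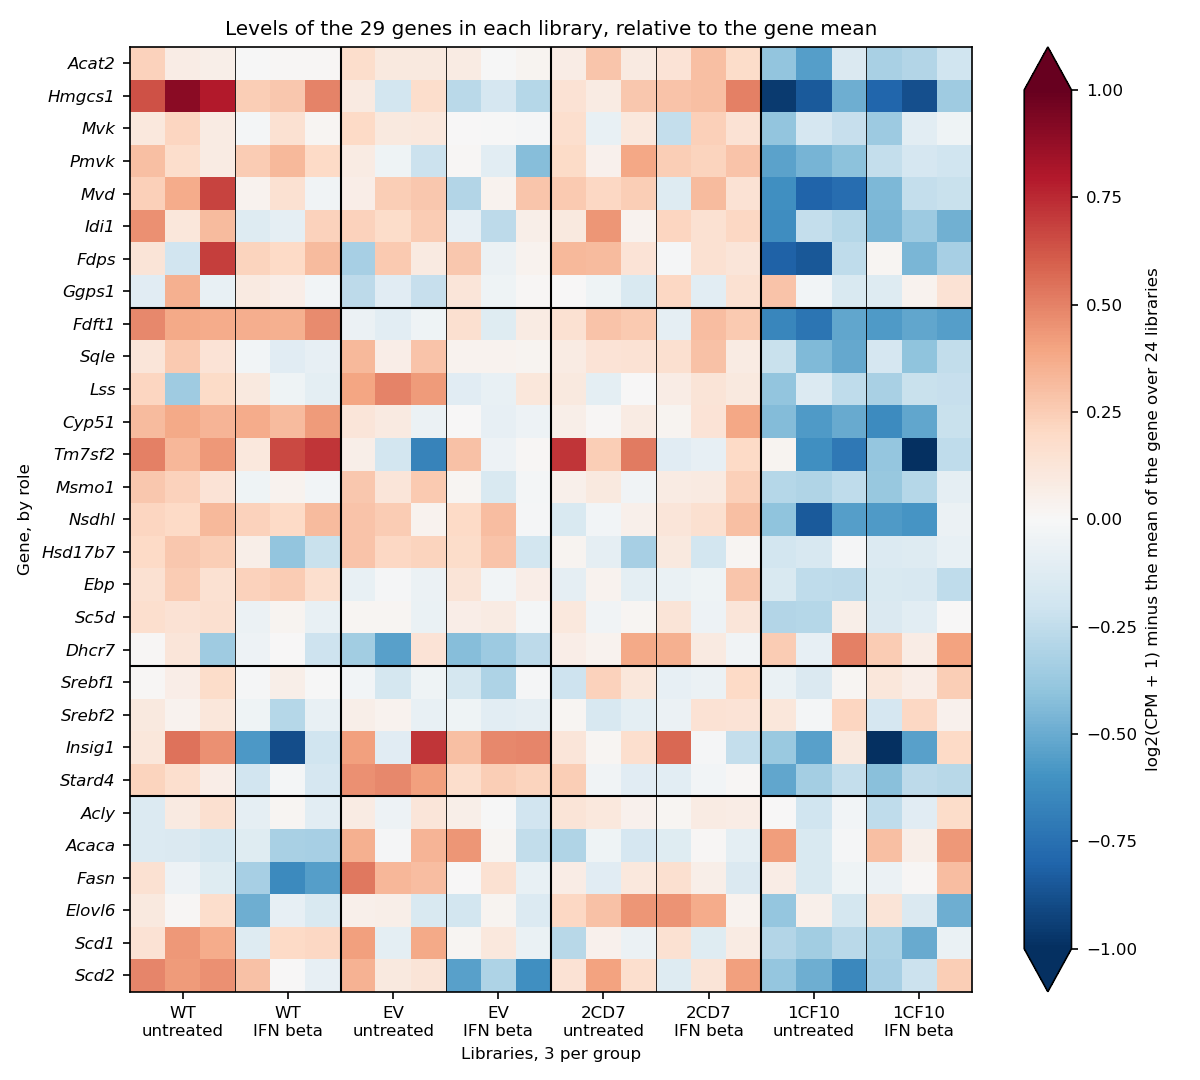
Each row is a gene, ordered by role, and each column a library, with 3 libraries per group. Colour is log2(CPM + 1) minus the gene's mean over 24 libraries, so blue is below and red above that mean, and most mevalonate and sterol genes are blue in the 1CF10 columns at the right.

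In the mevalonate arm, which makes the isoprenoid precursors of sterols, 7 of 8 genes were lower in 1CF10 than in WT, than in EV and than in 2CD7. Hmgcs1 (ENSMUSG00000093930, chr13:119690379-119708260 on GRCm38), the synthase that makes HMG-CoA, was at 86.2, 93.6 and 119 CPM in the untreated 1CF10 libraries. It was at 262, 292 and 315 CPM in WT, 148, 179 and 189.9 CPM in EV and 178, 186 and 202 CPM in 2CD7. No library of 1CF10 overlapped any of the other lines, and WT lay above all of them. The log2 difference of 1CF10 was -1.56 ± 0.12 (SE, adjusted p = 1.25e-10) from WT and -0.81 ± 0.12 (SE, adjusted p = 3.11e-05) from EV by edgeR's quasi-likelihood test, and 2CD7 exceeded 1CF10 by 0.93 ± 0.12 (SE, adjusted p = 2.22e-06).

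Mvd, the decarboxylase that yields isopentenyl diphosphate, was at 13.2, 13.6 and 15.2 CPM in 1CF10. The other lines had 28.2, 30.9 and 38.5 CPM (WT), 24.9, 28.4 and 28.9 CPM (EV) and 27.5, 28.4 and 28.7 CPM in 2CD7. All 3 libraries of 1CF10 lay below every library of the other lines. Its log2 difference was -1.27 ± 0.17 from WT and -1.005 ± 0.18 from EV (SE, edgeR adjusted p = 4.08e-08 and 2.35e-05). Acat2 (acetoacetyl-CoA formation), Mvk and Pmvk (mevalonate kinases), Idi1 (isomerase) and Fdps (farnesyl diphosphate synthase) were also lower in 1CF10 than in each other line. Their log2 differences from WT ran from -0.98 for Fdps to -0.43 for Mvk, and from EV from -0.68 for Fdps to -0.43 for Mvk. Against EV the calls of Pmvk, Fdps and Mvk were lost in 6, 5 and 4 of 13 alternatives. The Mvk call between the clones was lost in 6 of 13. DESeq2 was among the alternatives in each case, while the Acat2 calls held in all 13. Ggps1, which diverts farnesyl diphosphate to geranylgeranyl diphosphate for protein prenylation, did not pass the test, at -0.05 ± 0.14 from WT and 0.21 ± 0.14 from EV (SE). The gene model Gm43738 overlaps the 3′ end of Fdps on the same strand, so its count is uncertain.

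In the squalene and sterol arm, 9 of 11 genes were lower in 1CF10 than in WT, 7 of 11 were lower than in EV, and 6 of 11 were higher in 2CD7 than in 1CF10. Fdft1, the squalene synthase, was at 52.2, 55.0 and 60.4 CPM in 1CF10, 113, 114 and 122 CPM in WT, 81.1, 83.5 and 84.6 CPM in EV and 97.1, 105 and 107 CPM in 2CD7. The 4 lines did not overlap in Fdft1, in the order 1CF10, EV, 2CD7 and WT from low to high. Fdft1 differed by -1.08 ± 0.10 from WT, by -0.60 ± 0.10 from EV, and by 0.90 ± 0.10 between 2CD7 and 1CF10 (log2, SE, edgeR adjusted p = 3.13e-13, 1.68e-05 and 2.71e-10). Fdft1 lies on chromosome 14, whose 403 tested genes had medians of -0.11 for 1CF10 minus WT and 0.03 for 1CF10 minus EV. For 2CD7 minus 1CF10 the median of that chromosome was 0.23 on the same scale. The part of these shifts in the Fdft1 differences was not tested.

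Cyp51, the lanosterol demethylase, was at 106, 111 and 116 CPM in 1CF10, 197, 200.5 and 206 CPM in WT, 152, 168 and 172 CPM in EV and 159.7, 164 and 168 CPM in 2CD7. Nsdhl, which removes sterol methyl groups with Msmo1, was at 21.4, 26.5 and 29.4 CPM in 1CF10, 45.1, 45.6 and 49.5 CPM in WT, 40.3, 47.1 and 48.2 CPM in EV and 35.3, 38.5 and 40.6 CPM in 2CD7. In both genes the 1CF10 libraries lay below all others. Sqle, the squalene epoxidase, was at 104, 109 and 126 CPM in 1CF10, 161, 163 and 177 CPM in WT, 155, 181 and 185 CPM in EV and 157, 163 and 164 CPM in 2CD7. Msmo1, the methylsterol oxidase, was at 149.7, 152 and 155 CPM in 1CF10, 203, 217 and 223 CPM in WT, 201, 222 and 223 CPM in EV and 181, 191 and 198 CPM in 2CD7. For Sqle and Msmo1 too, the highest 1CF10 library was below the lowest of the other lines. The log2 differences of these genes from WT were -0.88 ± 0.08 for Cyp51, -0.90 ± 0.14 for Nsdhl, -0.60 ± 0.08 for Sqle and -0.52 ± 0.08 for Msmo1 (SE).

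Lss, the lanosterol synthase, was at 21.6, 23.9 and 26.1 CPM in 1CF10, 22.3, 33.0 and 33.5 CPM in WT, 38.1, 39.0 and 41.0 CPM in EV and 26.7, 28.8 and 30.9 CPM in 2CD7. EV was the high line in Lss, and 1CF10 overlapped WT through 1 low WT library. The difference from EV was -0.74 ± 0.14 (SE, adjusted p = 0.000106), and that from WT was -0.35 ± 0.15 with an edgeR adjusted p of 0.0932. Tm7sf2, a sterol C14 reductase, was at 1.94, 2.14 and 3.90 CPM in 1CF10, 5.07, 5.50 and 5.81 CPM in WT, 2.03, 3.25 and 4.01 CPM in EV and 4.72, 5.92 and 6.91 CPM in 2CD7, from 5 to 19 UMIs per untreated library. It passed the test against WT (-1.11 ± 0.39 SE, adjusted p = 0.0378) and against 2CD7 but not against EV (-0.30 ± 0.44 SE, adjusted p = 0.768). The WT call was lost in 7 of 12 alternatives and the 2CD7 call in 5 of 12, among them DESeq2 and leaving out single libraries, with adjusted p-values up to 0.163 and 0.134. Hsd17b7, the 3-ketosteroid reductase, was lower in 1CF10 than in both controls (-0.38 and -0.39), while 2CD7 minus 1CF10 was 0.02 ± 0.13 and did not pass. Each of the Hsd17b7 calls was lost in 7 of 13 alternatives, among them DESeq2, with adjusted p-values up to 0.103 (WT) and 0.126 (EV). Ebp, a sterol isomerase, and Sc5d, a desaturase, were lower than in WT alone (-0.44 and -0.35). Dhcr7, which makes cholesterol in the last step, did not pass and had positive log2 differences of 0.32 ± 0.16 from WT and 0.46 ± 0.17 from EV. At the 3′ ends of Fdft1, Cyp51 and Lss lie Ctsb, Akap9 and an antisense RNA on the other strand, and at that of Mvd lies Gm20388. No source used here says whether counting used strand, so those counts are uncertain. Ctsb and Akap9 themselves had log2 differences of -0.06 and 0.09 between 1CF10 and WT, neither past the test.

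**Figure D2:**
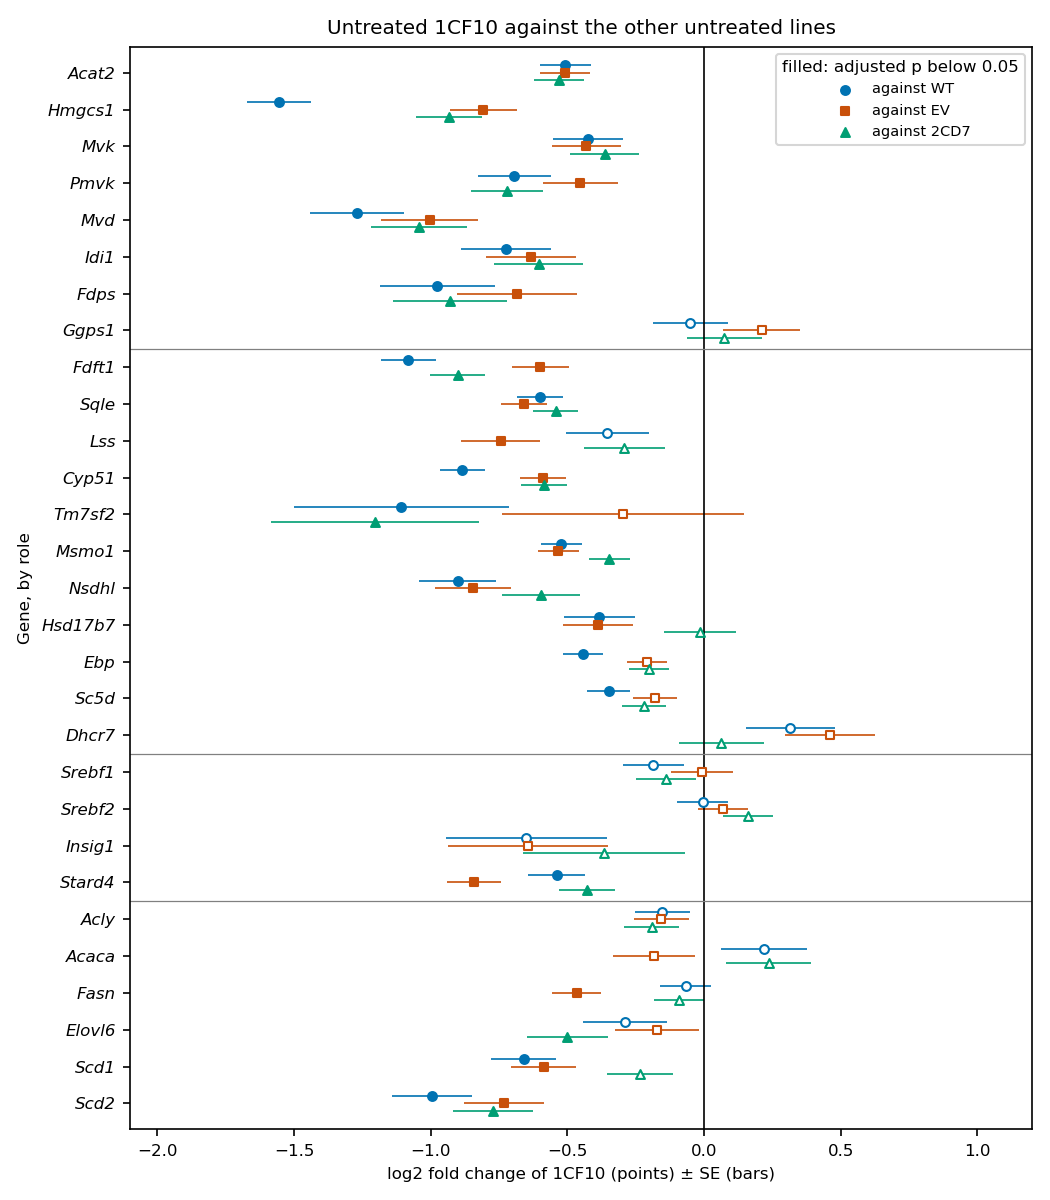
Points are log2 fold changes of untreated 1CF10 against WT, EV and 2CD7 for each gene, ordered by role, with bars of 1 SE and filled symbols where the edgeR adjusted p passed 0.05. Of the 8 mevalonate genes at the top, 7 have all 3 symbols filled and left of 0, and Srebf1 and Srebf2 lie near 0.

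Among the genes of sterol sensing and transport, 1 of 4 was lower in 1CF10. Stard4, a cytosolic sterol carrier, was at 52.8, 60.0 and 64.2 CPM in 1CF10, 79.8, 85.7 and 89.0 CPM in WT, 102, 105 and 106 CPM in EV and 70.2, 74.3 and 90.5 CPM in 2CD7. 1CF10 was the low line, EV the high one, and 1CF10 overlapped none of the others. The differences were -0.54 ± 0.10 (SE, adjusted p = 5.57e-05) from WT and -0.84 ± 0.10 (SE, adjusted p = 2.35e-09) from EV by edgeR. Stard4 lies on chromosome 18, whose 314 tested genes had a median of -0.27 for 1CF10 minus EV and 0.03 for 1CF10 minus WT. For EV minus WT the median of that chromosome was 0.25. The part of these shifts in the Stard4 values was not tested. Transcripts of the regulators themselves did not pass the test. Srebf2, the main activator of sterol genes, differed by -0.01 ± 0.09 from WT and 0.07 ± 0.09 from EV, and Srebf1 by -0.19 ± 0.11 and -0.01 ± 0.11. Insig1, both an inhibitor of SREBP release and a target of SREBP, had log2 differences of -0.65 ± 0.29 and -0.65 ± 0.29, with edgeR adjusted p-values of 0.146 and 0.207 and a wide spread between libraries. Rai1 overlaps the 3′ end of Srebf1 on the other strand.

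In fatty acid synthesis, 2 of 6 genes were lower in 1CF10 than in WT and 3 of 6 lower than in EV. Scd2, a stearoyl-CoA desaturase, was at 385, 430.1 and 462 CPM in 1CF10, 811, 829 and 848 CPM in WT, 645, 661 and 768 CPM in EV and 667, 677 and 796 CPM in 2CD7. 1CF10 lay below all other untreated libraries, with log2 differences of -0.99 ± 0.15 (SE, adjusted p = 8.67e-05) from WT and -0.73 ± 0.15 (SE, adjusted p = 0.00282) from EV. Its paralog Scd1 was at 56.8, 58.9 and 60.1 CPM in 1CF10, 59.6, 69.4 and 74.7 CPM in 2CD7, and in the controls 80.0, 93.9 and 98.4 CPM (WT) and 67.7, 94.8 and 96.4 CPM (EV). The clones overlapped each other in Scd1, and 1 EV library lay within the range of 2CD7. Scd1 was the only 1 of the 29 genes called lower in both clones than in both controls, against 0.239% of all tested genes, and none was called higher, against 0.0427%. The 2CD7 differences were -0.42 ± 0.12 (SE, adjusted p = 0.0259) from WT and -0.35 ± 0.12 (SE, adjusted p = 0.0462) from EV by edgeR. The joint call was lost with DESeq2 and with limma-voom, and it held only without 2CD7 library 2, EV library 2 or WT library 1 when 1 untreated library was left out. Because Scd1 and Scd2 are similar in sequence, reads could be split between them. Acly, Acaca and Elovl6, which supply cytosolic acetyl-CoA, carboxylate it and elongate palmitate, passed the test against neither control.

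The 2 clones were also compared among treated libraries. These come from the same 2 single clones, so they are no independent repeat of the untreated comparison. Among treated libraries 14 of 29 genes were higher in 2CD7 than in 1CF10 and none lower, against 8.76% and 6.41% of all tested genes. Among the mevalonate genes Hmgcs1 differed most, by 1.07 ± 0.12 (SE, adjusted p = 2.1e-07), with 91.1, 96.8 and 131 CPM in 1CF10 against 205, 208 and 239 CPM in 2CD7. Fdft1 differed by 0.77 ± 0.10 and Cyp51 by 0.68 ± 0.08. Fdps, Mvk, Scd2 and Tm7sf2 no longer passed, while Ebp and Scd1 passed among treated libraries alone. The difference between the responses of 2CD7 and 1CF10 itself passed in edgeR for none of the 29 genes, with 2 at an unadjusted p under 0.05, and for 0% of all tested genes. Without library 3 of treated 1CF10, 12 genes were higher in 2CD7, and 9 were in a fit of those groups alone.

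The libraries were also compared without a model. All 1CF10 libraries lay below all libraries of the other lines for 14 of 29 genes among untreated libraries and for 11 among treated ones, against 4.31% and 3.84% of all tested genes. Over all 24 libraries, 7 genes had every 1CF10 library below every library of the other lines (Acat2, Hmgcs1, Fdft1, Sqle, Cyp51, Ebp and Stard4), against 1.72% of all tested genes.

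**Figure D3:**
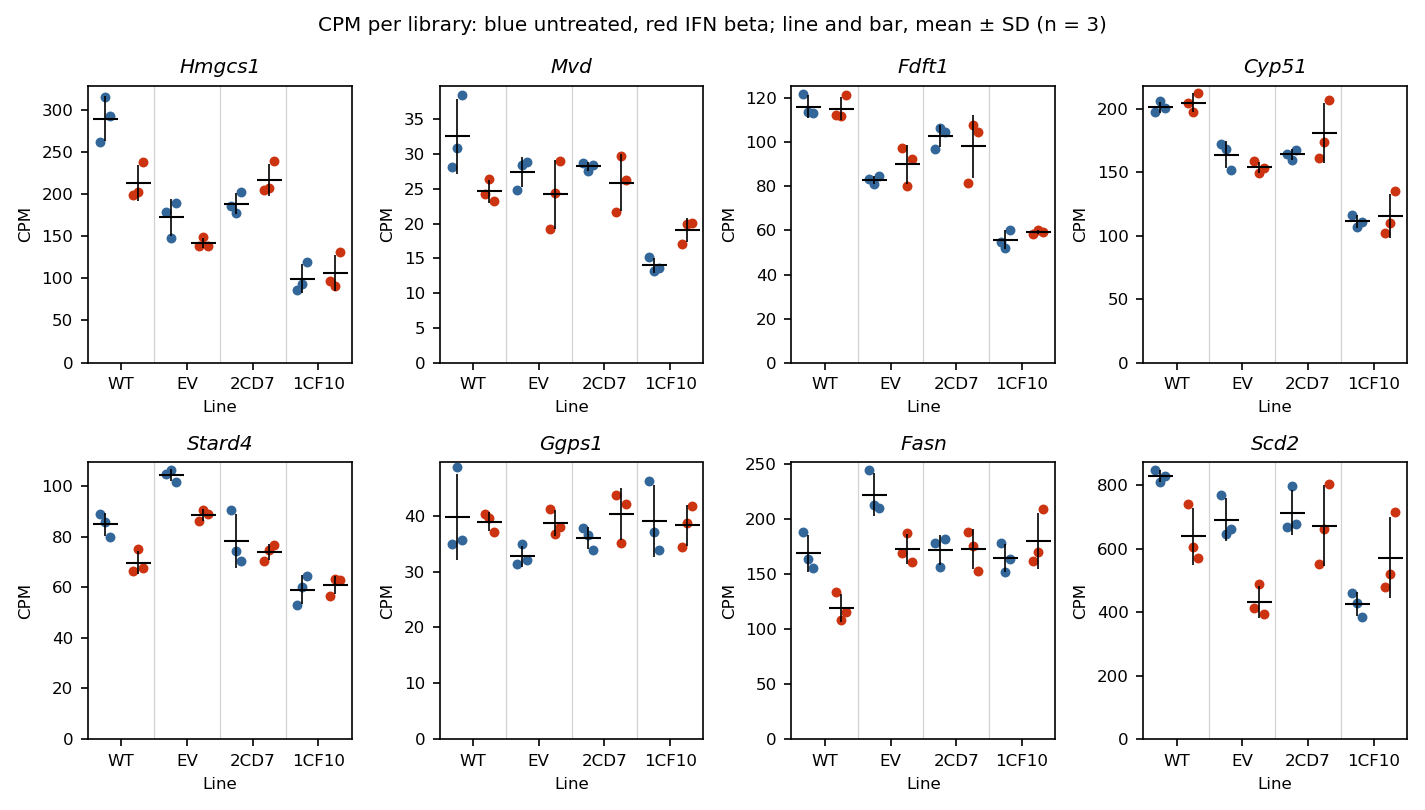
CPM in each library for 8 genes, with lines along the horizontal axis, untreated libraries in blue and IFN beta in red, and the mean ± SD (n = 3). The 1CF10 points of Hmgcs1, Fdft1, Cyp51 and Stard4 lie below those of every other line, those of Ggps1 overlap them, and Fasn is lower in red than in blue in WT and EV.

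Some markers of cell type differed between the lines. The summed level of fibroblast markers was 135 to 194 CPM in untreated 1CF10, 78.7 to 87.7 CPM in WT, 36.5 to 45.0 CPM in EV and 29.1 to 35.1 CPM in 2CD7. Of 6 fibroblast markers 2, Col1a1 and Dcn, had enough counts to test. Both were higher in 1CF10 than in EV and 2CD7, and only 1 of them was called higher than in WT. Thy1, Pdgfra and Col1a2 stayed at or near 0 in every group, at 1.14 CPM or less. Of 12 epithelial and mesothelial markers 7 had enough counts to test. Against EV 3 were higher in 1CF10 and 3 lower, and against WT 1 was higher and 5 lower. Krt8, an epithelial keratin, was lower than in both (-0.77 ± 0.10 from WT and -0.66 ± 0.10 from EV), Upk1b, a uroplakin, was higher than in both (0.23 and 0.37), and Wt1, a mesothelial transcription factor, was lower than in WT (-0.42) and higher than in EV (0.33). The summed epithelial and mesothelial markers were 2548 to 2565 CPM in 1CF10 and 2624 to 3393 CPM in the other untreated lines. Leukocyte markers summed to at most 4.54 CPM and endothelial markers to at most 1.90 CPM in any library. The part of these marker differences in the sterol gene differences was not tested.

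Against WT, 2CD7 was lower in 4 of 29 genes (Hmgcs1, Cyp51, Ebp and Scd1) and higher in none, against 2.06% and 1.45% of all tested genes. When any 1 library of these groups was left out, 1 or 2 genes passed. The calls of Ebp, Cyp51 and Scd1 were lost in 11, 6 and 5 of 13 alternatives, and that of Hmgcs1 held in all 13. Against EV, 2CD7 was lower in 4 (Lss, Stard4, Fasn and Scd1) and higher in Fdft1 alone, against 4.86% and 4% of all tested genes. The Fdft1 difference was 0.30, and its call was lost in 6 of 13 alternatives, as were those of Lss and Scd1. Chromosome 14, which carries Fdft1, had a median of 0.23 for 2CD7 minus EV, and chromosome 18, which carries Stard4, had -0.26. The part of these shifts in the Fdft1 and Stard4 values was not tested. The median of the 29 genes was -0.12 against WT and 0.00 against EV. The 2 controls also differed: EV was lower than WT in Hmgcs1 (-0.75 ± 0.11 SE, adjusted p = 2.05e-05), Fdft1 (-0.48), Cyp51 (-0.30) and Ebp (-0.23). EV was higher than WT in Fasn (0.40) and Stard4 (0.30). These 4 lower and 2 higher genes stand against 7.14% and 6.96% of all tested genes. The calls of Stard4 and Ebp were lost in 5 and 6 of 13 alternatives. For EV minus WT, chromosome 18, which carries Stard4, had a median of 0.25, and chromosome 14, which carries Fdft1, had -0.10. The part of these shifts in the Stard4 and Fdft1 differences between the controls was not tested. Among treated libraries, 5 genes were lower and 3 higher in EV, against 9.45% and 9.7%, and Insig1 was among the higher ones, at 103, 117 and 118 CPM in EV and 44.9, 55.9 and 72.5 CPM in WT (0.97 ± 0.30 SE, adjusted p = 0.0314). That call was lost in 6 of 13 alternatives (no filter on low counts, without any 1 of the treated EV libraries, or without treated WT library 1 or 2), with adjusted p-values up to 0.13.

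The second comparison asked what IFN beta did to these genes within 3 h in lines with and without Ifnar1 knockout. In WT 2 of 29 genes fell, Hmgcs1 and Fasn, and in EV 2 fell, Fasn and Scd2, where 1.84% and 1.1% of all tested genes fell. None of the 29 rose in either line, against 5.01% and 3.99% of all tested genes. Fasn was the 1 gene that fell in both, against 0.359% of all tested genes. The median response of the group was -0.07 in WT and -0.07 in EV, against -0.02 and -0.01 for all tested genes.

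Fasn, the multienzyme that makes palmitate, was at 155, 163 and 188 CPM in untreated and 108, 115 and 134 CPM in treated WT. In EV it was at 209.9, 213 and 244 CPM untreated and 161, 169 and 188 CPM treated. Treated and untreated libraries did not overlap in either line. The log2 change was -0.46 ± 0.10 (SE, adjusted p = 0.000606) in WT and -0.32 ± 0.09 (SE, adjusted p = 0.0214) in EV by edgeR. In 1CF10 Fasn was at 152, 164 and 178 CPM untreated and 162, 170.1 and 209 CPM treated, and in 2CD7 at 156, 178 and 182 and 153, 176 and 189 CPM, with overlap in both clones. The EV call was lost with DESeq2 and without 1 of 3 libraries in turn (EV treated library 1 or 3, or EV untreated library 1), with adjusted p-values up to 0.202.

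Hmgcs1 in WT fell from the untreated values given above to 199, 202 and 238 CPM, with no overlap and a log2 change of -0.40 ± 0.11 (SE, adjusted p = 0.022). In EV it was at 138, 139 and 149 CPM after treatment, where the highest treated library was just above the lowest untreated one, and the difference of -0.24 ± 0.12 did not pass. After treatment both clones overlapped their untreated libraries or lay above them. The WT call was lost without treated library 1 or 2, or untreated library 2 or 3, with adjusted p-values up to 0.112.

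Scd2 in EV fell to 393, 414 and 487 CPM, below every untreated EV library, a log2 change of -0.64 ± 0.15 (SE, adjusted p = 0.0128). In WT it was at 571, 606 and 739 CPM after treatment, also below every untreated WT library, but the difference of -0.33 ± 0.14 had an edgeR adjusted p of 0.231. Treated clones had 479, 520.0 and 716 CPM (1CF10) and 552, 660.2 and 804 CPM (2CD7). All 3 treated 1CF10 libraries were above the untreated ones, but no gene of the 29 passed in that line. The EV call was lost without EV treated library 1 or 3, or EV untreated library 1, with adjusted p-values up to 0.0752. Insig1 in WT was at 90.3, 115 and 122 CPM untreated and at the treated values given above, again with no overlap, but its log2 change of -0.88 ± 0.30 had an edgeR adjusted p of 0.11 and did not pass. In a fit of the untreated and treated WT libraries alone, 4 genes fell in WT (Hmgcs1, Insig1, Fasn and Scd2). The difference between the WT and EV responses passed in edgeR for none of the 29 genes, with 2 at an unadjusted p under 0.05, where 0.0256% of all tested genes were higher and 0.0171% lower.

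**Figure D4:**
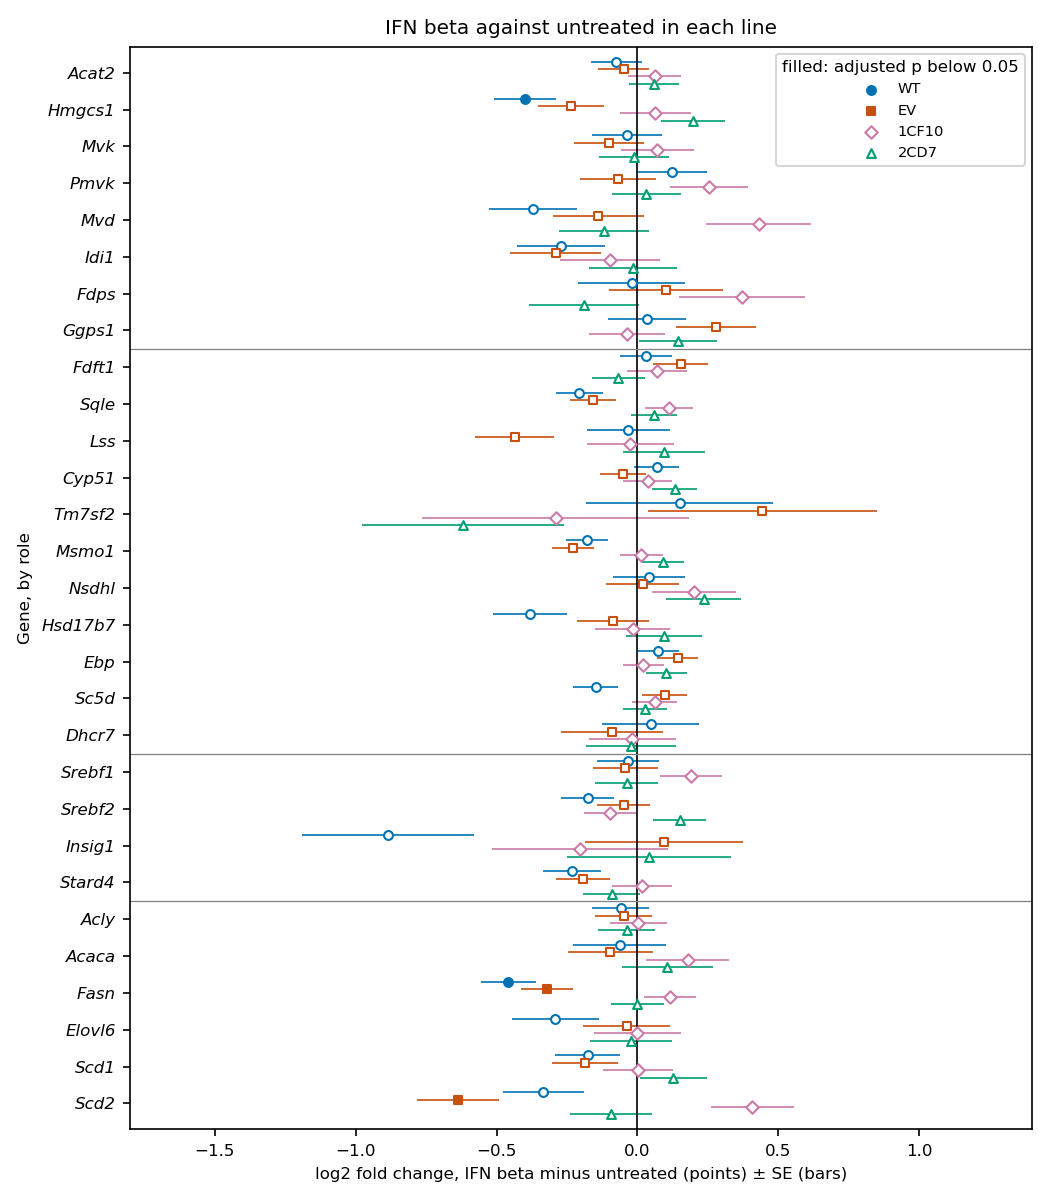
Points are log2 fold changes of IFN beta against untreated for each gene in the 4 lines, with bars of 1 SE and filled symbols where the edgeR adjusted p passed 0.05. Filled symbols appear for Hmgcs1 and Fasn in WT and for Fasn and Scd2 in EV, and all symbols of both clones are open.

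In the Ifnar1 knockout clones none of the 29 genes passed in edgeR, limma-voom or DESeq2, and 0% of all tested genes passed in edgeR. At an unadjusted p under 0.05, 2 of 29 genes passed in 1CF10 and none in 2CD7, against 4.1% and 4.4% of all tested genes. In WT and EV those counts were 9 and 5 genes, against 17% and 14.1%. The difference between the mean response of the clones and that of the controls was then tested directly. It passed the test as higher in the clones for 5 of 29 genes and as lower for none, against 1.56% and 3.68% of all tested genes. Of the 29 values, 25 were above 0 and 4 below, where 46.1% of all tested genes were below 0. The 5 genes that passed in edgeR were Scd2 (0.64 ± 0.15 SE, adjusted p = 0.0118), Hmgcs1 (0.45 ± 0.12 SE, adjusted p = 0.0197), Fasn (0.45 ± 0.09 SE, adjusted p = 0.000702), Sqle and Msmo1. A positive value means that the gene fell more, or rose less, in the controls.

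Sqle and Msmo1 had passed in no single line. Sqle was at 137, 139.6 and 145 CPM in treated WT and 151, 152 and 152 CPM in treated EV, each library below every untreated library of its line, and the treated clones, at 112, 124 and 132 CPM (1CF10) and 157, 165 and 182 CPM (2CD7), overlapped their untreated libraries. Msmo1 was at 179, 181 and 189 CPM in treated WT and 166, 183 and 187 CPM in treated EV, again with no overlap with the untreated libraries, while the treated clones had 142, 151 and 173 CPM (1CF10) and 196, 197 and 218 CPM (2CD7). Their differences of response were 0.27 ± 0.08 and 0.26 ± 0.07 (edgeR adjusted p = 0.0417 and 0.0261). Scd2, Hmgcs1 and Fasn passed in all 30 alternatives, whereas Sqle passed in 7 and Msmo1 in 15 of them, with adjusted p-values up to 0.149 and 0.113. DESeq2, no filter on low counts, and leaving out library 3 of treated 1CF10 were among the alternatives that left 3 genes.

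Other lipid genes that changed after IFN beta included some that rose. Of 20 tested genes of sterol synthesis, uptake and SREBP control outside the 29, 3 rose in WT and 4 in EV and none fell. Among all tested genes, 5.01% and 3.99% rose and 1.84% and 1.1% fell. Rnf139, a sterol-sensing ubiquitin ligase that restrains SREBP processing, was at 29.9, 32.7 and 41.1 CPM in untreated and 70.2, 71.2 and 75.6 CPM in treated WT, a rise of 1.11 ± 0.15 (SE, adjusted p = 9.85e-08), and rose by 0.90 ± 0.15 (SE, adjusted p = 1.72e-05) in EV. Npc2, which moves cholesterol out of lysosomes, rose by 0.63 ± 0.06 in WT and 0.44 ± 0.06 in EV, and Lpl, which releases fatty acids from lipoproteins, by 0.37 ± 0.10 and 0.48 ± 0.12. Of 26 other tested genes of fatty acid and lipid metabolism, Lpin2 rose (0.76 in WT, 0.53 in EV) and Mid1ip1, an activator of acetyl-CoA carboxylase, fell (-0.43 and -0.35), and no other of the 26 passed in WT or EV. None of 7 oxysterol and LXR target genes or of 14 isoprenoid branch genes passed in WT or EV.

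The same lists were read in untreated 1CF10. Of the 26 other fatty acid and lipid genes, 10 were lower than in WT and none higher, and 5 were lower and 1 higher than in EV, against 11% and 8.19% of all tested genes for WT and 6.76% and 3.6% for EV. Lpin1, a phosphatidate phosphatase, had log2 differences of -1.29 ± 0.23 from WT and -0.78 ± 0.24 from EV, and lies on chromosome 12, whose 417 tested genes had medians of -0.32 and -0.43. Acsl5, an acyl-CoA synthetase, differed by -0.67 ± 0.07 and -0.61 ± 0.07. Of the 20 other sterol genes, 4 were lower and 1 higher than in WT, and 2 lower and 2 higher than in EV, with Npc2 lower than in both (-0.81 and -0.69), against the same shares of all tested genes. Among 14 isoprenoid branch genes, which use the same precursors for prenylation, dolichol and ubiquinone, 1 was higher than in WT and none passed against EV, at or under those shares. The medians of the other sterol list were -0.04 against WT and 0.00 against EV. Unlike Lpin1, Acsl5 and Npc2 were not set against the medians of their chromosomes.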

How the data were processed

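Total RNA of 24 libraries was profiled by 3′ RNA sequencing, and the deposited values are UMI counts per gene that the authors made without normalization, per the file headers and values. The submitters' processing notes name cutadapt 3.0, R 3.6.2 and 4.1.2, edgeR 3.36.0, limma 3.50.0, GRCm38 and mm10, while no source used here gives the aligner. Genes were kept by edgeR's filterByExpr (minimum count 10, minimum total 15). TMM scaling was used in the fits, and printed CPM values are UMIs relative to each library's total. One quasi-likelihood fit over all 8 groups (edgeR 4.0.16, R 4.3.3) gave 15 comparisons, each adjusted by Benjamini-Hochberg over 11698 genes with a threshold of 0.05, and SEs follow from the F statistic. The fit was tested on simulated data. Alternatives were RLE scaling, DESeq2 1.42.0, limma-voom 3.58.1, other filters, the replicate number as a block, the compared groups alone and leaving out each library.

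Library totals were 1972192 to 3097331 UMIs, so genes of a few CPM rest on few UMIs. Library values are given for genes called in a response, in a difference of responses, in both clones against both controls, or among the 3 largest differences per direction between untreated lines. The genes and lists were chosen with earlier results of these data known, and the counts against all 3 other lines and of libraries that do not overlap were added after seeing the data. Deviations from group means correlated at 0.0263 on average between libraries of the same number (-0.196 to 0.231, 84 pairs). Between libraries of other numbers the average was -0.0132 (-0.399 to 0.386, 168 pairs). With no stated pairing, the numbers were not taken as pairs. Coordinates come from GENCODE M21 (29 of 29 genes matched) and promoters from RefSeq GRCm38.p6.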

Additional observations from a re-analysis of the deposited data

Results flagged for a closer look

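For 5 genes the mean response to IFN beta of the Ifnar1 knockout clones differed from that of the WT and EV controls by a direct test of the difference (edgeR). The difference on the log2 scale was 0.64 for Scd2, 0.45 for Hmgcs1, 0.45 for Fasn, 0.27 for Sqle and 0.26 for Msmo1, with SEs of 0.15, 0.12, 0.09, 0.08 and 0.07. The calls of Scd2, Hmgcs1 and Fasn held in all 30 alternatives, while that of Sqle held in 7 and that of Msmo1 in 15 of 30. Each is a contrast of 4 lines, of which 2 are knockout clones, so clone and knockout cannot be told apart within either clone.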

How the results depend on the processing

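Over 99 calls of single genes and the alternatives applied to them, 1169 of 1370 values kept their direction and stayed past the threshold, 201 kept the direction and lost the call, and none reversed. With DESeq2 the genes lower after IFN beta in EV were 1 (Scd2), the differences of response 3, EV above WT 1 (Fasn), 2CD7 above EV 0 and below EV 2, 2CD7 below WT 2, and lower in both clones 0, as also with limma-voom (0). With no filter the differences of response were 3, EV above WT 1 (Fasn), 1CF10 above EV 1 (Dhcr7) and 2CD7 above EV 2 (Fdft1 and Elovl6). With the compared groups alone, 4 genes fell in WT (Hmgcs1, Insig1, Fasn and Scd2), 2 were higher in 2CD7 than in EV, and treated 2CD7 was above treated 1CF10 in 9. In each case the cause was not tested. RLE scaling and a minimum count of 30 moved no count by over 1.5 times. Only counts that moved by over 1.5 times, or to or from 0, are listed here. Among smaller moves, DESeq2 lost the 1CF10 calls of Fdps, Hsd17b7, Mvk and Pmvk against EV. Against WT it lost those of Hsd17b7 and Tm7sf2. Fdps, Mvk and Pmvk are among the 14 genes lower in 1CF10 than in each other line.

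Leaving out 1 library at a time, 16 to 18 genes were lower in 1CF10 than in WT, 13 to 19 lower and 0 to 1 higher than in EV, 13 to 15 higher in untreated and 10 to 13 in treated 2CD7, and 10 to 14 lower than in all 3 other lines, with 10 without untreated 1CF10 library 1. Differences of response ranged from 3 to 5 (3 without treated 1CF10 library 3, treated EV 2 or 3, treated WT 1 or 3, or untreated 2CD7 1 or 3, EV 1 or 3 or WT 1 or 2), falls in WT from 1 to 2 and in EV from 0 to 3. EV against WT gave 1 to 3 higher and 2 to 4 lower untreated, with the lowest counts without untreated EV library 1 (higher) and 3 (lower), and 2 to 4 higher and 3 to 5 lower treated, the lowest without treated EV library 3 (lower). 2CD7 gave 0 to 1 higher and 2 to 4 lower than EV, and 1 to 2 lower than WT, and 0 to 1 gene was lower in both clones.

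With the replicate number as a block, every count of the 29 genes was as without it, for example 19 lower in 1CF10 than in WT and 5 differences of response, and 12 of 24 libraries correlated best with their own number.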
